A study of Mus musculus with 2 samples.

Results

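Transcript levels of the Zfp zinc finger genes were measured in the uterus of mice at gestational day 4, in 1 library of Mettl3 ed/ed and 1 of Mettl3 f/f genotype. They were taken as the genes whose symbol is Zfp followed by a number and whose level averaged at least 2 FPKM over both libraries. FPKM is the number of sequenced fragments scaled to transcript length and to library size. By this rule 256 genes were kept, of 392 with such a symbol and of 20634 genes in all. The genes were thus selected on their mean measured level, which is given as a description. The ratio between the libraries was not part of the choice, although 31 of the 256 genes reached 2 FPKM in only 1 of the libraries.

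Zfp is the mouse prefix for zinc finger protein, a name for a fold and not for 1 function. Most of these proteins carry tandem C2H2 fingers, in which a pair of cysteines and a pair of histidines hold a zinc ion and each finger reads a short stretch of DNA. Many also carry a KRAB box, a domain that recruits TRIM28 (KAP1) and, through it, the histone methyltransferase SETDB1 and HP1 proteins to silence chromatin, retroelements above all. The KRAB genes arose by tandem duplication and lie in clusters of similar copies. A few Zfp genes are of another kind: the Zfp36 family carries CCCH fingers that bind AU-rich elements of messenger RNAs and speed their decay.

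Both libraries came from the whole uterus of pregnant females aged 6 to 8 weeks that had mated with fertile males, with the plug counted as day 1. Mettl3 encodes the enzyme that methylates adenosines of RNA to N6-methyladenosine (m6A). The labels do not spell out the letters ed and f, name a strain or a Cre driver, or say how many animals each library holds. Since each genotype had 1 library, differences have no replicate check, hold between these libraries alone and were not tested. A gene was called higher or lower where (ed/ed FPKM + 1) over (f/f FPKM + 1) reached 2-fold, a rule of size. That scale understates the differences of genes with low levels. In whole tissue, fewer cells of a type and less RNA per cell cannot be told apart.

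Depth was estimated at 17300000 fragments in the ed/ed library and 18400000 in the f/f library. Mettl3 was at 10.2 FPKM in ed/ed and 10.6 FPKM in f/f, nearly equal, so which library is which rests on the labels. The tissue label was borne out by Hoxa10, a uterine homeobox gene, at 81.7 FPKM in ed/ed and 142 FPKM in f/f. Over 8 uterine genes the median log2 ratio was -0.72, with 7 below 0. The oviduct gene Ovgp1 was at 60.8 FPKM in ed/ed and 41.0 FPKM in f/f, and the oocyte gene Zp3 was at 0 in both. Transcript levels of cell type markers differed between the libraries, which does not tell a change of cell numbers from one of RNA per cell. All 8 stromal markers were lower in ed/ed than in f/f, 4 of them at least 2-fold, and their levels summed to 445 FPKM in ed/ed and 925 FPKM in f/f. All 7 endothelial markers were also lower, 6 of them at least 2-fold, with sums of 70.9 FPKM in ed/ed and 176 FPKM in f/f. Of 7 myometrial markers, the 6 at the minimum were higher, 1 of them at least 2-fold, and the 7 summed to 793 FPKM in ed/ed and 471 FPKM in f/f. Of 7 immune markers, the 6 at the minimum were higher too, 2 of them at least 2-fold, with sums over the 7 of 242 FPKM in ed/ed and 118 FPKM in f/f. The 8 epithelial markers summed to 1662 FPKM in ed/ed and 1702 FPKM in f/f. No defining marker of stroma, endothelium or epithelium was at 0 in both libraries. The part of these shifts in the Zfp results was not tested.

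Most Zfp genes were slightly lower in the ed/ed library, by about as much as the rest of the transcriptome. The median Zfp gene was at 4.76 FPKM in ed/ed and 6.19 FPKM in f/f. The median log2 ratio was -0.28 over the 256 Zfp genes, with a SD of 0.45 across genes, and -0.26 over the 10754 genes at the same minimum, with a SD of 0.57. Ratios below 0 were found for 185 Zfp genes (72.3%), against 70.6% of all genes at the minimum. Set against the all-gene median, the Zfp genes divided almost evenly, with 135 (52.7%) below it, where 50% of all genes lie. Scaling ed/ed by the median ratio, by the upper quartile or by a list of reference genes raised its values by 0.28, 0.23 and 0.38 on the log2 scale before 1 FPKM was added. The median of all genes was then -0.0013, -0.049 and 0.087, and the last scaling turned the Zfp median to 0.03. Under the 4 scalings tried, the Zfp median differed from that of all genes by -0.04 to -0.06. Ratios and signs below are those of the deposited values, and the text names each list whose median changed sign under a scaling.

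**Figure D1:**
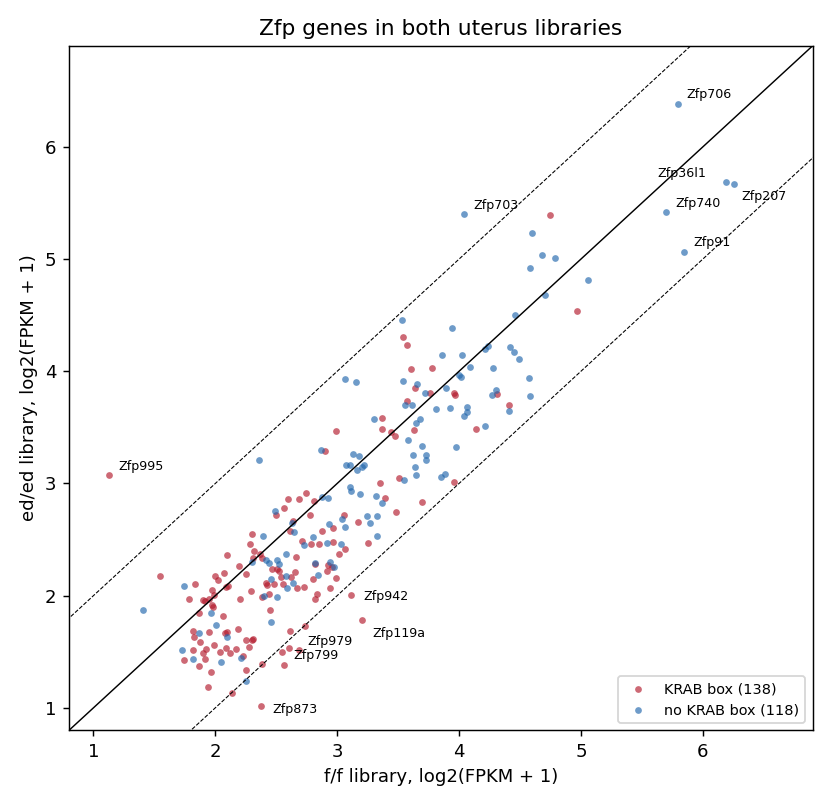
Level of each of the 256 Zfp genes in the ed/ed library (vertical axis) and the f/f library (horizontal axis), as log2(FPKM + 1), with 1 library per genotype. Red points have a KRAB box and blue points have none; the solid line marks equal levels and the dashed lines a 2-fold difference, which 12 genes passed.

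Past the 2-fold limit, 2 Zfp genes were higher in ed/ed (0.781%), against 2.34% of all genes at the minimum. On the lower side were 10 (3.91%), against 5.9% of all genes. The other 244 Zfp genes lay within 2-fold. Both shares were below those of all genes. At 1.5-fold, 12 Zfp genes (4.69%) were higher, against 6.43% of all genes, and 58 (22.7%) were lower, against 22.7% of all genes. The balance of the calls moved with the scale. Higher genes made up 16.7% of the Zfp calls as deposited, and 33.3%, 77.8%, 55.6% and 83.3% after scaling by library sums, by the median ratio, by the upper quartile and by reference genes. Of the 12 called genes, 8 reached 2 FPKM in only 1 of the libraries.

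The highest ratio belonged to Zfp995, a KRAB gene on chromosome 17. It was at 7.41 FPKM in ed/ed and 1.19 FPKM in f/f, a 3.84-fold difference on the scale with 1 FPKM added. About 252 fragments stood behind the value in ed/ed and 43 behind that in f/f. Its plain ratio was 6.23, with a 95% interval of 4.51 to 8.85 that, like all intervals here, covers counting error only. Zfp995 shared 19.65% of its 50-base stretches with other genes, so part of its reads could have been placed on a copy.

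The other higher gene was Zfp703, whose protein is a transcriptional cofactor of the NET family and whose human counterpart is amplified in luminal breast cancers. Its level was 41.2 FPKM in ed/ed and 15.5 FPKM in f/f, a 2.56-fold difference behind which stood 2063 fragments in ed/ed and 828 in f/f. Counting error alone put the plain ratio of 2.66 between 2.45 and 2.88. Its closest relative, Zfp503, stood on the other side, at 11.5 FPKM in ed/ed and 20.3 FPKM in f/f, with a log2 ratio of -0.77. Zfp995 and Zfp703 were the only Zfp genes that passed 2-fold under both other pseudocounts, all 4 scalings and removal of the length trend.

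The 10 lower genes were all of low level, between 1.03 and 3.02 FPKM in ed/ed and between 3.40 and 8.20 FPKM in f/f. All but Zfp329 carried a KRAB box, and no function is given here for them beyond that domain. Zfp119a was at 2.43 FPKM in ed/ed and 8.20 FPKM in f/f, 2.68-fold lower. Its plain ratio was 0.297, with an interval of 0.225 to 0.384. Zfp873 was at 1.03 FPKM in ed/ed and 4.19 FPKM in f/f, 2.56-fold lower, with only 37 fragments in ed/ed and 163 in f/f. These were the lower genes that kept their call under the median ratio, the reference genes and removal of the length trend. None kept it with a pseudocount of 5 FPKM.

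Next came Zfp799 at 1.61 FPKM in ed/ed and 4.91 FPKM in f/f, and Zfp979 at 1.86 FPKM in ed/ed and 5.42 FPKM in f/f. Zfp942 was at 3.02 FPKM in ed/ed and 7.65 FPKM in f/f. Zfp182, on the X chromosome, was at 1.82 FPKM in ed/ed and 4.83 FPKM in f/f. In each of them the ed/ed level was below that of f/f by more than counting error. Zfp329 was at 1.36 FPKM in ed/ed and 3.76 FPKM in f/f, and Zfp964 at 1.19 FPKM in ed/ed and 3.40 FPKM in f/f. Zfp971 was at 1.89 FPKM in ed/ed and 5.07 FPKM in f/f, and Zfp963 at 2.33 FPKM in ed/ed and 5.67 FPKM in f/f. Zfp971 and Zfp963 are uncertain, because they shared 40.05% and 40.41% of their 50-base stretches with other genes. Zfp979 shared 24.60% and Zfp119a 16.56%, so part of their reads could likewise have been placed on a copy. Just inside 2-fold lay Zfp719, at 1.62 FPKM in ed/ed and 4.23 FPKM in f/f.

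**Figure D2:**
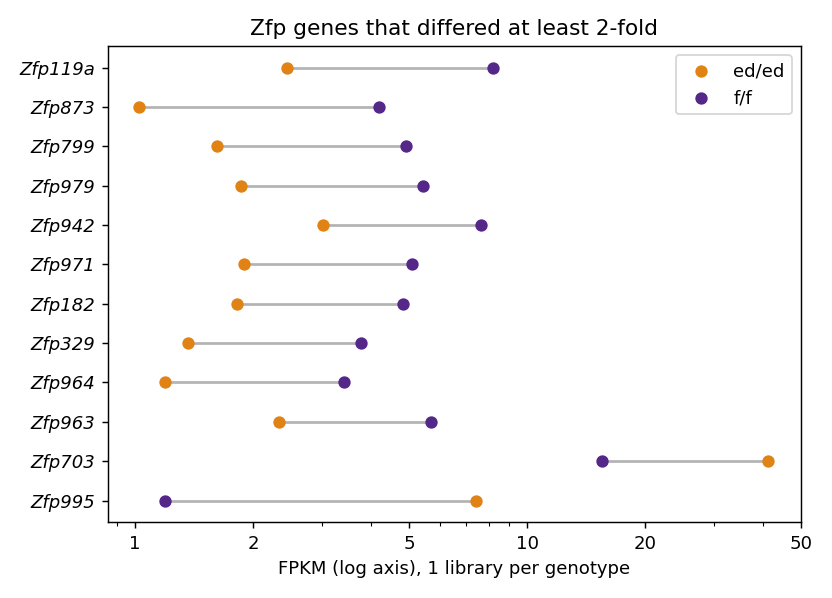
FPKM on a log axis of the 12 Zfp genes that differed at least 2-fold, with ed/ed in orange and f/f in purple, 1 library per genotype. The 10 lower genes lie between 1.03 and 8.20 FPKM, whereas Zfp703 reaches 41.2 FPKM in ed/ed.

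Short of 2-fold on the higher side were genes of middle level. Zfp513 was at 20.9 FPKM in ed/ed and 10.6 FPKM in f/f, with a log2 ratio of 0.92. Zfp467, which favours the adipocyte fate of marrow stroma in mice, was at 14.2 FPKM in ed/ed and 7.37 FPKM in f/f. Zfp628 was at 8.26 FPKM in ed/ed and 4.14 FPKM in f/f. Zfp451, which encodes a SUMO ligase, was at 14.004 FPKM in ed/ed and 7.90 FPKM in f/f. These 4 genes passed 2-fold when ed/ed was scaled by the median ratio, as did the KRAB gene Zfp251 at 18.8 FPKM in ed/ed and 10.6 FPKM in f/f. Zfp629 was at 36.6 FPKM in ed/ed and 23.3 FPKM in f/f.

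Of the 6 most abundant Zfp genes, Zfp7 was the only one with a KRAB box, and Zfp36l1 is given below with its family. Zfp706, a repressor of the pluripotency gene Klf4 in mouse embryonic stem cells, was at 82.5 FPKM in ed/ed and 54.5 FPKM in f/f. Zfp207, whose protein loads the checkpoint protein BUB3 at kinetochores, was at 49.9 FPKM in ed/ed and 75.5 FPKM in f/f. Zfp740 was at 41.8 FPKM in ed/ed and 50.9 FPKM in f/f, and Zfp7 at 41.0 FPKM in ed/ed and 25.8 FPKM in f/f. Zfp91, which encodes a ubiquitin ligase of the non-canonical NF-kB pathway, was at 32.4 FPKM in ed/ed and 56.5 FPKM in f/f. The leading genes thus lay on both sides of equality, and each stayed within 2-fold.

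A KRAB box was found in the annotated protein of 138 of the 256 Zfp genes, by a profile of the domain. Of the 118 without one, 100 carried C2H2 fingers of the usual spacing. The 3 CCCH genes and 15 others carried none of that spacing. Some of the 15 had fingers of a looser spacing, such as Zfp106 with 3 and Zfp638 with 2. For them a miss does not mean that C2H2 fingers are absent. As the CCCH genes show, the symbol alone does not mark a C2H2 protein. KRAB genes had a median of 11.5 fingers and the rest a median of 7; the longest array, of 35 fingers, was that of Zfp142. KRAB genes were of lower level, with a median of 3.51 FPKM in ed/ed and 4.82 FPKM in f/f. Those without the box had a median of 7.98 FPKM in ed/ed and 9.01 FPKM in f/f. The minimum of 2 FPKM kept 58.7% of the 235 KRAB genes with a Zfp symbol and 75.6% of 156 others with an annotated protein.

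KRAB genes accounted for 9 of the 10 lower calls, which is 6.52% of the 138, close to the 5.9% of all genes at the minimum. Only Zfp995 among them was higher. Their median log2 ratio was -0.33, with a SD of 0.48 across genes, and 99 of the 138 (71.7%) were below 0. Among the 100 C2H2 genes without the box the median was -0.21, with a SD of 0.41, and it was 0.02 with scaling by the median ratio. Of them 1 was lower and 0 higher. The medians of the KRAB genes and these C2H2 genes differed by -0.12, a description with no test. That difference was -0.08 after removal of the length trend. The 26 KRAB genes with other symbols had a median of -0.37, with 3 lower (11.5%, against 5.9% of all genes) and 0 higher, and 22 (84.6%) were below 0, against 70.6% of all genes. The 106 C2H2 genes with other symbols and no KRAB box had a median of -0.25, which scaling by the reference genes turned to 0.07, with 5 lower (4.72%) and 0 higher.

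KRAB genes were weighted to low levels. Between 2 and 5 FPKM lay 85 KRAB genes (61.6%) and 27 of the others (22.9%). In that range 7 KRAB genes were lower in ed/ed, 8.24% of the 85, and the share over all genes of that level was also 8.24%. Their median log2 ratio there was -0.38, against -0.31 over all genes of that level. From 10 FPKM upward the 17 KRAB genes had a median of 0.04, with 9 above 0, against -0.22 over all genes of that level. Over the 256 Zfp genes the Spearman correlation of the log2 ratio with level was 0.22, and over all genes at the minimum it was 0.10. With transcript length it was -0.23 over the Zfp genes and -0.24 over all genes. These correlations run across genes of the same pair of libraries and are descriptions. The number of fingers had a correlation of -0.06 with the log2 ratio over the 256 genes.

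**Figure D3:**
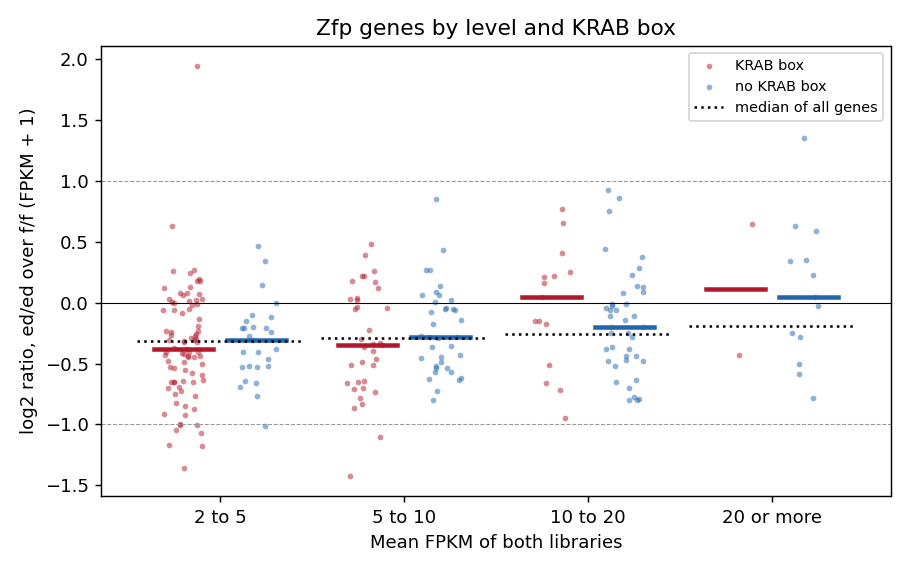
Log2 ratio of ed/ed over f/f (FPKM + 1) for KRAB genes in red and other Zfp genes in blue, by mean level, with bars at their medians and dotted lines at the median of all genes of that level. KRAB medians run from -0.38 between 2 and 5 FPKM to 0.04 between 10 and 20 FPKM, and the top range holds only 2 KRAB genes.

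Smaller domain classes gave few genes each. The SCAN box, a dimerisation domain, occurred without KRAB in 5 Zfp genes, all below 0, with a median log2 ratio of -0.57. Lowest of them were Zfp397, at 5.25 FPKM in ed/ed and 8.63 FPKM in f/f, and Zfp213, at 5.53 FPKM in ed/ed and 9.03 FPKM in f/f. Zfp263 was at 7.44 FPKM in ed/ed and 11.5 FPKM in f/f. Zfp24 and Zfp444 were nearest to 0, with log2 ratios of -0.11 and -0.06 that turned sign in other settings. Among genes with C2H2 fingers alone, Zfp664 was next to Zfp329 at the low end, at 12.7 FPKM in ed/ed and 22.9 FPKM in f/f. Zfp110, Zfp369 and Zfp445 carried both boxes and had a median of -0.43. Over the 16 Zscan and Zkscan genes at the minimum, which carry the SCAN box under other symbols, the median was -0.10 with 0 called, and it turned positive under 3 of the 4 scalings.

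Promoter sequence was compared because KRAB genes stand in duplicated clusters and some neighbours had opposite ratios. The pairs shown are Zfp995 and Zfp942, whose 5′ ends lie 53 kb apart on chromosome 17, and Zfp868 and Zfp964, 29 kb apart on chromosome 8. In each pair the gene higher in ed/ed comes first. Each sequence covers 250 bases before and 50 bases after the RefSeq start, on GRCm38.p6, written 5′ to 3′ on the gene's strand, which is the plus strand for Zfp964 and the minus strand for the other 3. Capitals mark CpG dinucleotides. They lie at chr17:21909877-21910176, chr17:21962415-21962714, chr8:69625499-69625798 and chr8:69654306-69654605 in the order of the lines.
Zfp995: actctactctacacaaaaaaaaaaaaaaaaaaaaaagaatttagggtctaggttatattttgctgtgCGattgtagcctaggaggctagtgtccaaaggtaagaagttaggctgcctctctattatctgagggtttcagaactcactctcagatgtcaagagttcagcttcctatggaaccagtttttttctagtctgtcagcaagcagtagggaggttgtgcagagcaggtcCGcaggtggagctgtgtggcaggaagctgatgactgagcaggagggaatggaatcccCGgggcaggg
Zfp942: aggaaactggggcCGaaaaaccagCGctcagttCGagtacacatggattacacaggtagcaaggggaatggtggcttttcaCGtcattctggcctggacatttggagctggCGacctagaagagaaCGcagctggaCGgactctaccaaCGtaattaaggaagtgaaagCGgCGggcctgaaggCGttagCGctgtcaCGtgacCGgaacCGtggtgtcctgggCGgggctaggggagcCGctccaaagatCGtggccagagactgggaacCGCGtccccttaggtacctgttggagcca
Zfp868: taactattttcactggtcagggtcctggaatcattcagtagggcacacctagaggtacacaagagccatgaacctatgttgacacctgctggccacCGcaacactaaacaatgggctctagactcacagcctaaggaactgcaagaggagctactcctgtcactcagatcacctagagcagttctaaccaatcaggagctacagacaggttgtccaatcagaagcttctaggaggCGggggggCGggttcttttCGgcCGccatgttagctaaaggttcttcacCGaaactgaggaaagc
Zfp964: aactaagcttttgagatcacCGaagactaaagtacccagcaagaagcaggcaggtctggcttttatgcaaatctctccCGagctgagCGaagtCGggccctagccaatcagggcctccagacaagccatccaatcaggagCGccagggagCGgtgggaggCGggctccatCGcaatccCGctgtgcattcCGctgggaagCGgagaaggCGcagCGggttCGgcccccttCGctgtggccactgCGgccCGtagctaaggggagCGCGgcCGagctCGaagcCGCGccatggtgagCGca
The promoter of Zfp995 held 3 CpG and that of Zfp942 held 20. The promoter of Zfp868 held 6 CpG and the motif CCAAT, and that of Zfp964 held 24 CpG and CCAAT. In each pair the gene that was higher in ed/ed held fewer CpG, but these pairs were picked for their opposite ratios.

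Over all 210 Zfp genes with a RefSeq promoter, KRAB genes had fewer CpG. The median was 11 over 117 KRAB genes, 21 over 82 C2H2 genes without the box and 21 over 8638 genes at the minimum. Among KRAB genes with other symbols it was 6, over 20 promoters. Within the KRAB genes the CpG count had a Spearman correlation of -0.06 with the log2 ratio (n = 117), which is close to 0. On either strand CCAAT, the core of the NF-Y motif, occurred in 53.0% of Zfp KRAB promoters and 37.8% of those of C2H2 genes without the box. Among KRAB genes with other symbols it was in 95% of 20 promoters. It was in 38.8% of promoters of genes at the minimum and 38.7% of 16237 promoters in all. CCGGAAG, a core of ETS factors, occurred in 24.8% of KRAB promoters, 19.5% of C2H2 promoters without the box, 19.5% of those at the minimum and 12.3% of all. ACTACAA, part of the motif read by ZNF143 in human cells, occurred in 6.84%, 7.32%, 4.65% and 3.87% of the same sets. A match describes the letters and is not a bound site.

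**Figure D4:**
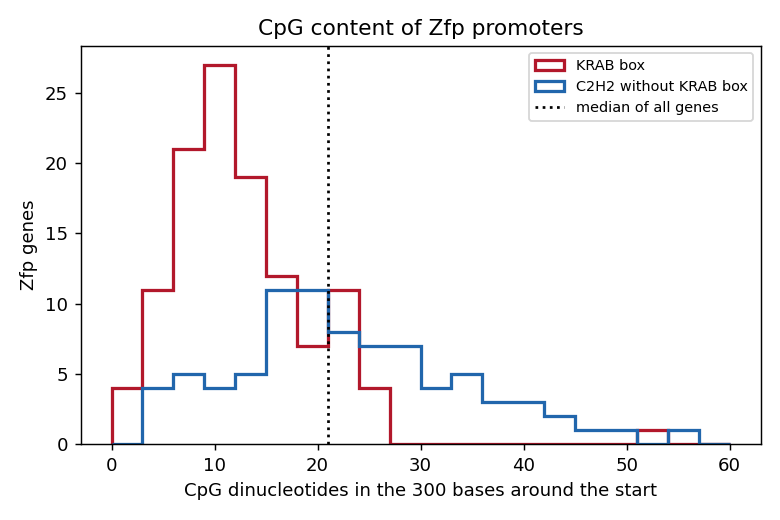
Number of Zfp genes by CpG dinucleotides in the 300 bases around the start, for 117 KRAB genes in red and 82 C2H2 genes without the box in blue. KRAB genes centre on 11 CpG and the others on 21, which is also the median of all genes at the minimum (dotted line).

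Zfp genes were found on 20 chromosomes, with 58 on chromosome 7, 38 on chromosome 17, 22 on chromosome 13, 19 on chromosome 8 and 16 on chromosome 9. Chromosomes 7 and 17 held 63 of the 138 KRAB genes. Where 5′ ends no more than 200 kb apart were joined, 15 groups of at least 4 Zfp genes formed, with 89 genes, 70 of them KRAB. In 12 of the 15 groups members lay on both sides of 0, and in 3 all were below 0. Over the 256 Zfp genes 72.3% were below 0, and over all genes at the minimum 70.6%. No result about neighbours is drawn from these counts, because that share and the scaling set the signs in part.

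The group with the lowest median, -0.87, lay on chromosome 8 (GRCm38, positions 69610857 to 69791178) and held 5 KRAB genes. Zfp964, Zfp963 and Zfp866 had log2 ratios of -1.007, -1.005 and -0.87. Zfp869, in their midst, was at 13.0 FPKM in ed/ed and 14.5 FPKM in f/f. Zfp868, at the edge of the group, was at 17.8 FPKM in ed/ed and 10.9 FPKM in f/f, with a log2 ratio of 0.66. Within this group the 2 most abundant genes had the highest ratios.

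On chromosome 17, Zfp995 was likewise next to genes of the other direction. Zfp942 and Zfp943 stand head to head, with 5′ ends 88 bases apart. Zfp943 was at 3.46 FPKM in ed/ed and 6.96 FPKM in f/f, with a log2 ratio of -0.83, close to the -1.10 of Zfp942. A second head-to-head pair, Zfp944 and Zfp758, 53 bases apart, had log2 ratios of -0.36 and -0.93. Of the 18 Zfp genes within 200 kb of a called one, 12 were below 0, where 70.6% of all genes lie as well. Their median log2 ratio was -0.37, against -0.26 over all genes at the minimum. The 4 called among the 18 were Zfp995 with Zfp942 and Zfp964 with Zfp963, each counted as a neighbour of the other. Of all genes at the minimum, 2.34% were called higher and 5.9% lower. Nothing on shared location is drawn from this count, because called genes were counted as neighbours of each other. Next to Zfp799, Zfp871 was at 4.55 FPKM in ed/ed and 8.55 FPKM in f/f, while Zfp870, Zfp472 and Zfp952 had log2 ratios of -0.30, -0.06 and 0.03. Next to Zfp119a, Zfp959 was at 13.01 FPKM in ed/ed and 12.6 FPKM in f/f, and its relative Zfp119b at 3.64 FPKM in ed/ed and 5.29 FPKM in f/f. Zfp938 and Zfp984, the neighbours of Zfp873 and Zfp979, were above 0, at 0.27 and 0.39. Zfp110 and Zfp324, the neighbours of Zfp329, were both below, at -0.51 and -0.50.

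The 12 KRAB genes of the largest group, on chromosome 13 (positions 67387905 to 67827002), ran from -0.77 to 0.18 with a median of -0.27, and 0 of them were called. In the group of 10 on chromosome 7 (positions 29768552 to 30169750), all were below 0, with a median of -0.30. Both medians were near the -0.26 of all genes and turned positive with scaling by the reference genes.

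**Figure D5:**
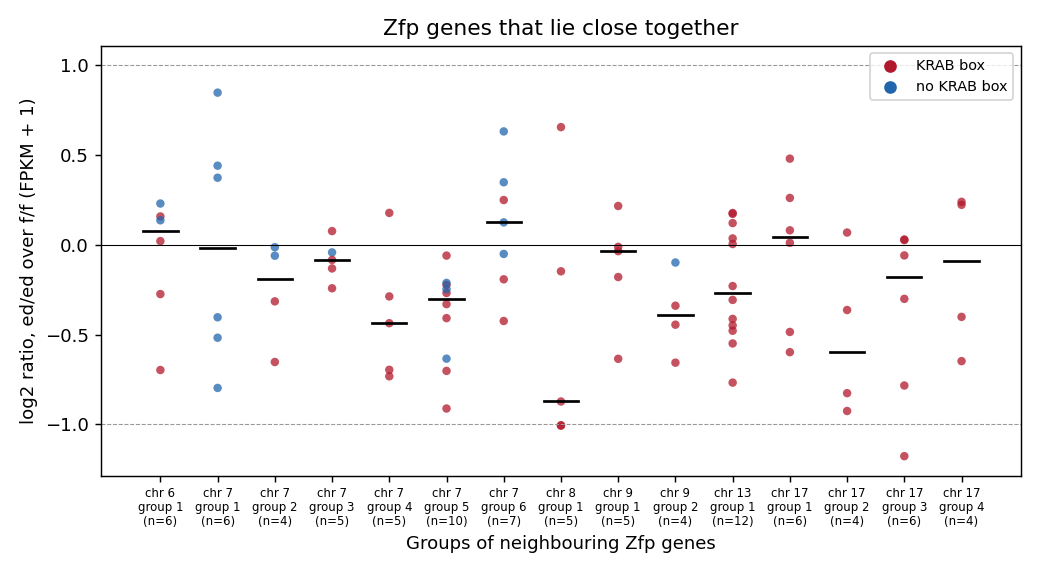
Log2 ratio of ed/ed over f/f (FPKM + 1) of the 89 Zfp genes in 15 groups of neighbours, with KRAB genes in red, others in blue and black bars at group medians. Members lie on both sides of 0 in 12 groups, and the chromosome 8 group has the lowest median, -0.87.

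Copies of one another make KRAB genes hard to measure. At least 25% of the 50-base stretches of a transcript were shared with other genes in 38 Zfp genes, 27 of them KRAB. The median share was 2.30% over KRAB genes and 0.595% over the rest, so for most of them sharing was slight. Zfp935 shared 100% of its stretches, so its value is uncertain. So is that of Zfp36l1, which shared 56.85% with other genes and 53.59% with the predicted gene Gm26669. No source used here states whether strand was kept, and antisense transcripts may therefore add to a gene's value.

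Of 9 Zfp genes listed for retroelement silencing or imprints, the 7 at the minimum were within 2-fold. All 7 were below 0, where 70.6% of all genes lie as well. They include Zfp91, described above as a ubiquitin ligase, for which no silencing role is given here. It had no KRAB box and the lowest log2 ratio of the 7, -0.78. The median of the 7 was -0.43, which stayed below 0 under all 4 scalings. Zfp708, below the minimum, was 2.10-fold lower in ed/ed and is given with the other observations. Zfp57, a KRAB gene that keeps methylation at imprinted loci, was at 7.02 FPKM in ed/ed and 9.23 FPKM in f/f. Zfp445, which shares that role, was at 22.2 FPKM in ed/ed and 30.2 FPKM in f/f. Zfp809, which silences murine leukaemia virus in embryonic cells, was at 10.2 FPKM in ed/ed and 16.7 FPKM in f/f. Of the KRAB genes among the 7, its ratio was farthest below the median of all genes. Zfp638, a recruiter of the HUSH silencing complex, was at 11.4 FPKM in ed/ed and 15.8 FPKM in f/f. Zfp568, a repressor of a placental Igf2 promoter, was at 3.56 FPKM in ed/ed and 3.75 FPKM in f/f. Zfp932 was at 9.76 FPKM in ed/ed and 10.1 FPKM in f/f. For Zfp568 and Zfp932 the sign turned under other scalings.

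KAP1 is the corepressor through which KRAB boxes act. Of 24 genes listed for it, all at the minimum, 1 was lower (4.17%, against 5.9% of all genes) and 0 higher (against 2.34%). Below 0 were 21 (87.5%), against 70.6% of all genes, with a median of -0.59 that lay between -0.52 and -0.25 under the scalings. Trim28, the adaptor itself, was at 58.1 FPKM in ed/ed and 88.8 FPKM in f/f. Setdb1, which methylates histone H3 at lysine 9, was at 19.97 FPKM in ed/ed and 10.99 FPKM in f/f, a log2 ratio of 0.81. Atf7ip2, a SETDB1 partner, was the called gene, at 0.447 FPKM in ed/ed and 5.14 FPKM in f/f. The maintenance DNA methyltransferase Dnmt1 was at 5.59 FPKM in ed/ed and 11.6 FPKM in f/f, and the NuRD subunit Gatad2b at 4.74 FPKM in ed/ed and 10.3 FPKM in f/f. Gatad2a, its relative, was at 13.7 FPKM in ed/ed and 25.02 FPKM in f/f. Of the HUSH complex, 7 symbols were listed and only 4 were found in the data, all at the minimum. They had 0 calls and a median of -0.34, which scaling by the reference genes turned to 0.02.

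The CCCH genes stayed within 2-fold. Zfp36 was at 31.2 FPKM in ed/ed and 26.5 FPKM in f/f, Zfp36l1 at 50.5 FPKM in ed/ed and 72.2 FPKM in f/f, and Zfp36l2 at 16.3 FPKM in ed/ed and 21.5 FPKM in f/f. Of 19 genes listed as their partners in decay, 18 were at the minimum. The list is not limited to deadenylation and decapping factors, since it also holds Elavl1 and Mapkapk2. The 18 had a median of -0.41, which stayed below 0 under all 4 scalings. Among them 1 was lower (5.56%, against 5.9% of all genes) and 0 higher. The lower one was Cnot3, a scaffold of the deadenylase, at 9.94 FPKM in ed/ed and 21.4 FPKM in f/f. Of 20 listed messages with AU-rich elements, 12 were at the minimum, with a median of 0.37 that stayed positive under all 4 scalings. Above 0 were 8 and below 0 were 4 (33.3%), against 70.6% of all genes below 0. Those below were Dusp1, Plaur, Myc and Bcl2, with log2 ratios of -0.47, -0.46, -0.41 and -0.13. Ier3, an immediate early gene, was the 1 gene called, on the higher side (8.33% of the 12, against 2.34% of all genes). It was at 31.5 FPKM in ed/ed and 13.2 FPKM in f/f. The immediate early gene Fos was at 9.57 FPKM in ed/ed and 4.78 FPKM in f/f, and Nfkbiz, an NF-kB cofactor, at 13.3 FPKM in ed/ed and 7.11 FPKM in f/f. Immune markers were also higher in ed/ed, as given above, and their part in this was not tested.

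Regulators of cell fate had few calls. Of 8 genes listed for pluripotency, 5 were at the minimum, Zfp207 among them. These had 0 calls and a median of -0.35, and all were below 0, where 70.6% of all genes lie. Zfp706, the repressor of Klf4 given above, was listed under translation instead and had a log2 ratio of 0.59. Zfp281 was at 3.89 FPKM in ed/ed and 6.06 FPKM in f/f, and Zfp322a at 5.43 FPKM in ed/ed and 7.20 FPKM in f/f. Zfp217, whose protein binds METTL3 in mouse embryonic stem cells, was at 6.502 FPKM in ed/ed and 8.12 FPKM in f/f. Zfp143, a promoter factor also found at chromatin loops, was at 5.23 FPKM in ed/ed and 6.62 FPKM in f/f. Of 8 genes listed for mesenchymal and adipocyte fate, 6 were at the minimum, with a median of -0.41. Zfp703 was the 1 called higher (16.7% of the 6, against 2.34% of all genes), and 0 were lower (against 5.9%). Zfp423 and Zfp521, below the minimum, are given with the other observations. Zfp516, an activator of brown fat genes, was at 11.9 FPKM in ed/ed and 15.7 FPKM in f/f, and Zfp395 at 8.55 FPKM in ed/ed and 12.3 FPKM in f/f. The sign of Zfp217, Zfp143 and Zfp516 turned under at least 1 other scaling or removal of the length trend.

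Genes of Zfp proteins that serve translation had 0 calls and a median of -0.10 over 4, positive under 3 of the scalings. The 1 above 0 as deposited was Zfp706, given above, at a log2 ratio of 0.59. Zfp598, the ubiquitin ligase that senses collided ribosomes, was at 11.7 FPKM in ed/ed and 13.0 FPKM in f/f. Zfp622, a factor of large ribosomal subunit maturation, was at 17.6 FPKM in ed/ed and 20.3 FPKM in f/f, and Zfp593 at 7.87 FPKM in ed/ed and 8.19 FPKM in f/f. All 3 turned sign under other scalings. Genes tied to splicing and mitosis had a median of -0.43 over 5 and 0 calls. Of these, Zfp326 was at 11.7 FPKM in ed/ed and 14.2 FPKM in f/f, Zfp830 at 10.9 FPKM in ed/ed and 8.87 FPKM in f/f, and Zfp106 at 12.8 FPKM in ed/ed and 18.3 FPKM in f/f.

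Promoter regulators, 12 in number, had 0 calls and a median of -0.21, which 2 of the scalings turned positive. Zfp652 was at 3.54 FPKM in ed/ed and 6.17 FPKM in f/f, and Zfp148 at 8.23 FPKM in ed/ed and 12.3 FPKM in f/f. Zfp639 lay on the other side, at 16.7 FPKM in ed/ed and 13.5 FPKM in f/f. Zfp384 was at 24.6 FPKM in ed/ed and 25.04 FPKM in f/f, and Zfp410, an activator of the NuRD gene Chd4, at 14.6 FPKM in ed/ed and 14.96 FPKM in f/f, both nearly equal. Zfp787 and Zfp64 had log2 ratios of -0.01 and 0.02, and Zfp335 one of -0.15; Zfp787 and Zfp335 turned sign in other settings.

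The 10 chromatin cofactors had a median of -0.44, also with 0 calls. Zfp644, a partner of the G9a and GLP methyltransferases, was at 7.31 FPKM in ed/ed and 13.4 FPKM in f/f. Zfp609, which binds the cohesin loader in mouse neural progenitors, was at 3.76 FPKM in ed/ed and 6.87 FPKM in f/f, and its relative Zfp608 at 6.399 FPKM in ed/ed and 8.99 FPKM in f/f. Zfp827 was at 3.93 FPKM in ed/ed and 6.67 FPKM in f/f. By contrast Zfp592 was at 8.49 FPKM in ed/ed and 8.08 FPKM in f/f, and Zfp687, of the same complex, at 7.95 FPKM in ed/ed and 7.40 FPKM in f/f. Zfp532, the other of that complex, had a log2 ratio of -0.14 that turned sign in other settings, and Zfp518a and Zfp518b had -0.45 and -0.47.

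The 36 Zbtb factors, which join fingers to a BTB domain, had a median of -0.14, with 2 lower (5.56%, against 5.9% of all genes) and 0 higher, and 3 of the scalings turned the median positive. Those were Zbtb16, a progesterone-responsive gene in human endometrial stroma, at 4.22 FPKM in ed/ed and 12.6 FPKM in f/f, and Zbtb5, at 2.196 FPKM in ed/ed and 6.04 FPKM in f/f. The stromal markers given above were lower as well, and their part in this was not tested. The 17 Klf and Sp factors had 0 calls and a median of -0.34, which scaling by the reference genes turned to 0.02. Klf9, a progesterone receptor partner of the mouse uterus, was at 9.97 FPKM in ed/ed and 19.5 FPKM in f/f. The 12 Zc3h genes had a median of -0.36 and the 5 Zfhx, Zeb and Sall factors one of -0.16, with 0 calls in either, and the second turned positive under 3 scalings. The 7 m6A writer genes at the minimum had a median of 0.02 and 0 calls.

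At the edge of the rule, Zfp28, Zfp169 and Zfp420 were just inside, with mean levels of 2.02, 2.05 and 2.08 FPKM. Just outside were Zfp82 at 1.998 FPKM, Zfp976 at 1.997 FPKM and Zfp937 at 1.984 FPKM. Zfp169 was at 1.28 FPKM in ed/ed and 2.83 FPKM in f/f, and Zfp976 at 2.03 FPKM in ed/ed and 1.97 FPKM in f/f.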

How the data were processed

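Deposited FPKM values per gene were used as they stand. The unit is inferred: per the submitters' processing notes the authors ran HISAT2 2.2.1 and Cufflinks 2.2.1, and the tables name no unit. Those notes list the builds mm9 and mm10 without saying which applies, so coordinates locate genes and not reads. Annotation and filters: not given in the sources used here.

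Domains, lengths and clusters came from GENCODE M21 (GRCm38) by gene identifier for 20557 genes, with proteins translated from it because no RefSeq protein table was used here. KRAB and SCAN boxes were called with profiles scoring above 0 bits. The step between low values, with transcripts shortened by 250 nt, gave each library's depth and from it exact binomial intervals (95%). Ratios, thresholds and depth estimates were checked on simulated data. Calculations used Python 3.11.15, pandas 2.3.3, scipy 1.17.1 and statsmodels 0.14.6.

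Ratios used a pseudocount of 1 FPKM and 2-fold calls. Alternatives were pseudocounts of 0.1 and 5, minimum levels of 1, 5 and none, 1.5-fold, 4 scalings, a lowess length correction and C2H2 genes alone. The scaling by reference genes used 15 genes, of which 1 was lower and 0 higher, with a median of -0.34 that this scaling turned to 0.04.

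The genes and lists were chosen with earlier results of these data known. Named are CCCH genes, the 6 most abundant, called genes, the extremes of each domain class and the edges of the rule, besides neighbours, genes of known role and up to 4 genes per partner list. Zfp719, Zfp758, Zfp944, Zfp935, Zfp142, Trim28, Setdb1, Dusp1, Plaur, Myc and Bcl2 were named after their values were seen.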

Additional observations from a re-analysis of the deposited data

How the results depend on the processing

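With 1 library per genotype, no replicate was left out, and no spread between animals is known. No paired analysis was possible because each genotype has 1 library. Low levels limit the calls: the least covered Zfp gene, Zfp873, had 37 fragments in ed/ed.

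The Zfp median of -0.28 moved to -0.17 with a pseudocount of 5 FPKM, -0.057, -0.10 and 0.027 with scaling by the median ratio, the upper quartile and the reference genes, -0.0099 without the length trend and -0.20 at a minimum of 5 FPKM. Scaling and the length correction shift all genes by construction. The 2 higher and 10 lower genes became 2 and 19 with a pseudocount of 0.1 FPKM, 2 and 0 with one of 5 FPKM, and 3 and 6 with scaling by the sum. They became 7 and 2 by the median ratio, 5 and 4 by the upper quartile, 10 and 2 by the reference genes, 8 and 2 without the length trend, and 1 and 2 at a minimum of 5 FPKM, which removes genes. A further setting kept only the 249 genes counted as having a C2H2 finger, a looser count than that of the domain classes. There 1 was higher, since Zfp703 drops out, and 10 were lower. At 1.5-fold, 12 were higher and 58 lower. The difference between the Zfp median and that of all genes, -0.02, turned to 0.013 with a pseudocount of 5 FPKM and to 0.047 at a minimum of 5 FPKM; the cause was not tested. The difference between KRAB genes and C2H2 genes without the box stayed between -0.14 and -0.05 in all settings run. Of 71 genes picked by level, call, domain class or role, 18 changed sign in at least 1 of the pseudocounts, scalings and the length correction.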

Other observations

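Below the minimum lay 136 further Zfp genes, 97 of them with a KRAB box. Of these, 17 were listed at 0 in both libraries, among them Zfp42 (Rex1), a marker of pluripotent cells, and Zfp36l3, the placental member of the CCCH family in rodents. Another 5 were listed at 0 in ed/ed and 6 in f/f. At least 2-fold lower in ed/ed were 4 and higher was 1, and the share over all genes below the minimum was not computed. Over the 375 Zfp genes kept without a minimum, 3.73% were lower, against 4.98% of 15186 genes. Higher were 0.8% of those Zfp genes, against 2.15% of all. Zfp820 was at 0.217 FPKM in ed/ed and 2.19 FPKM in f/f, Zfp526 at 0.508 FPKM in ed/ed and 2.64 FPKM in f/f, and Zfp708, a silencer of retroelements in mice, at 0.783 FPKM in ed/ed and 2.75 FPKM in f/f. Zfp366 was listed at 0 in ed/ed and at 1.12 FPKM in f/f. The gene past 2-fold in the other direction, Zfp981, was at 1.98 FPKM in ed/ed and listed at 0 in f/f. Zfp423 and Zfp521, regulators of mesenchymal and adipocyte fate, were at 0.774 and 0.518 FPKM in ed/ed, and at 2.27 and 1.69 FPKM in f/f.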
